A study of Mus musculus with 16 samples.

Results

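Estradiol (E2) was compared with vehicle in the caput epididymis of castrated mice. The caput is the first large region of the epididymis, the duct in which sperm leaving the testis mature. The comparison rests on 4 of the 16 arrays of the series, 2 labelled E2 and 2 labelled castrated. A gene belonged to it when its mean intensity exceeded 16 in the E2 or the castrated group. By that rule 13557 of 18194 genes were members, each read from its brightest probe set that carries a single gene symbol. The members nearest the limit were Mthfs just inside it, with means of 8.25 in E2 and 16.005 in castrated caput, and Tfap2d just outside it, with means of 15.0 in E2 and 15.996 in castrated caput.

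The animals of all groups used here were adult male mice of strain 129BL/6. E2 mice had been castrated, left for 14 days and given 0.015 mg estradiol. TP mice had been castrated in the same way and given 0.015 mg testosterone propionate, an injectable testosterone ester. Castrated controls received the vehicle, 100 µL of 10% ethanol in sesame oil, and sham controls kept their testes through a mock operation and received that vehicle as well. Tissue was taken 12 hours after the injection. The E2, TP and castrated groups therefore share the loss of testicular hormones and of sperm arriving from the testis. Each group had 2 arrays, and the labels do not say whether these were separate animals or pools. The p-values therefore measure only the spread between arrays within groups, pooled over the 4 caput groups, and that spread may be technical.

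Estradiol acts mainly through estrogen receptors, transcription factors of the nuclear receptor family that bind paired GGTCA motifs or act through other DNA-bound factors. In the male tract the receptor Esr1 is best known from the efferent ducts, where it maintains fluid reabsorption, and it is also present in cells of the epididymis. Testosterone propionate supplies an androgen that can be converted to estradiol by aromatase, while castration removes both hormones at their main source.

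Epithelial content was checked with the 8 caput epithelium markers that had a single-symbol probe set (Cdh1, Epcam, Krt8, Krt18, Pax8, Gpx5, Lcn5 and Adam7), all above background on all 4 arrays. The efferent duct markers Aqp1, Lrp2 and Foxj1 were above background on all 4 as well, Slc9a3 on 3 and Cubn on 0. This check therefore does not tell caput from efferent duct, and the segment is taken from the labels. Background on each array was the highest of 27 Bacillus control probe sets, which no mouse RNA should match. It was 8.48 and 9.20 on the E2 arrays and 7.82 and 11.4 on the castrated arrays. The 2 arrays of a group correlated at 0.966 in E2 and 0.970 in castrated caput over genes, which are not independent replicates. RNA integrity read from the 3' over 5' ratio of Gapdh separated the groups slightly, at -0.37 and -0.33 (log2) on the E2 arrays against -0.39 and -0.45 on the castrated arrays. The same ratio of actin overlapped (0.88 and 1.02 in E2, 0.79 and 1.02 in castrated caput). The part of these ratios in the differences below was not tested.

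Of the 13557 genes, 204 differed between E2 and castrated caput at an adjusted p below 0.05 (limma, Benjamini-Hochberg over all genes tested), which is 1.5% of them. The test found 129 genes higher (0.952%) and 75 lower (0.553%) in E2 caput. At an unadjusted p under 0.05 (limma) there were 2752 of the 13557, 1461 higher and 1291 lower. Counts at that level for the lists below stand beside this share. In 147 of the 204 the difference was at least 2-fold, 103 of them higher and 44 lower. The median size was 2.44-fold among the genes that rose and 2.10-fold among those that fell. The E2 and castrated arrays did not overlap for any of the 204, and they did not overlap for 52.7% of all genes either. Of the genes that rose, 10 had entered only through the E2 mean, and of those that fell, 12 only through the castrated mean, so these genes could be called in 1 direction alone.

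The number of calls differed widely between fits. With no lower limit on intensity no gene passed limma's test (smallest adjusted p = 0.0507, 2644 genes at an unadjusted p under 0.05), and 136 of the 204 then lay below an adjusted p of 0.1. A fit on the 4 arrays alone also gave 0 calls (smallest adjusted p = 0.0536, 2281 genes at an unadjusted p under 0.05). Leaving out 1 array of the E2 or castrated group gave far fewer calls, and only part of them were among the 204. The direction of all 204 genes was the same in each of these fits, but this was bound to be so. The fits use the same log2 values, and the E2 and castrated arrays overlapped for none of the 204. Upk1a was the 1 gene past the threshold in all 4 leave-out fits, Odam and Adra2c passed in 3 of them and Lipg in 2.

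**Figure D1:**
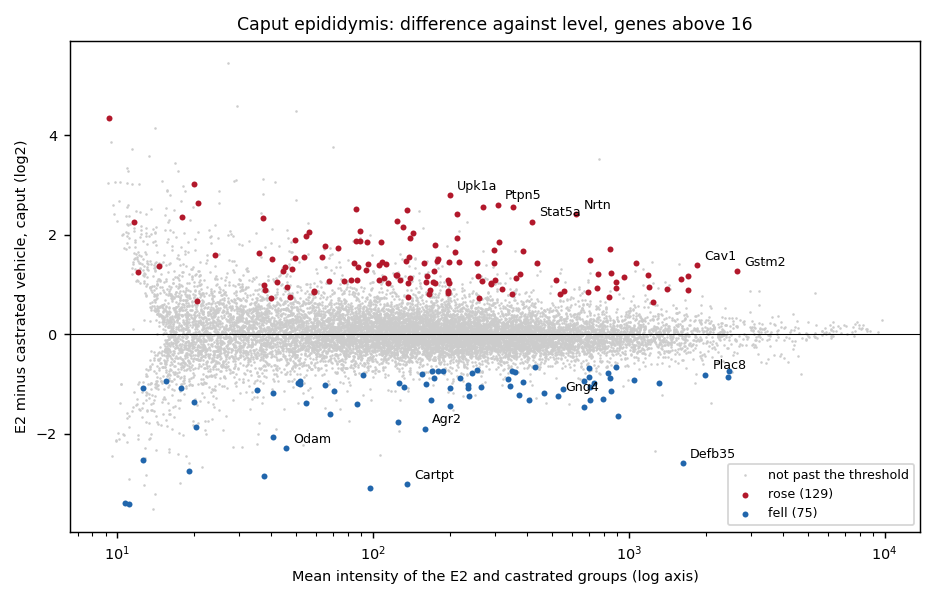
Difference between E2 and castrated caput (log2, vertical axis) against the mean intensity of both groups (log axis) for 13557 genes. Red points are the 129 genes that rose, blue points the 75 that fell and grey points those not past the threshold. The grey cloud widens toward the left, where intensities lie near 16.

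The gene whose rise held best was Upk1a, which encodes uroplakin 1a, a membrane protein of the plaques that line the bladder. Its intensity was 358 and 342 on the E2 arrays, against 47.6 and 53.4 on the castrated arrays. The TP arrays had 34.8 and 42.9 and the sham arrays 59.2 and 56.5, so the E2 arrays lay far above the other 3 groups and these lay close together. The log2 difference from castrated caput was 2.79 (95% interval 2.45 to 3.14, limma adjusted p = 0.0107), a 6.93-fold rise. From TP caput it was 3.18 (adjusted p = 0.00119).

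Adra2c, the gene of the alpha-2C adrenergic receptor for noradrenaline, was at 218 and 245 on the E2 arrays, against 43.7 and 38.6 on the castrated arrays. TP caput had 139 and 145, between the E2 and the castrated level. The rise over castrated caput was 5.63-fold (log2 2.49, 95% interval 2.16 to 2.83, limma adjusted p = 0.0107). A dimmer probe set of the gene gave a log2 difference of 1.84. The mean of all its probe sets gave 1.14, which was not past the threshold.

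The promoters of Upk1a, Adra2c, Lrat and Odam are shown as examples of genes with large differences. Other called genes with less spread between arrays than Lrat, such as Spink10 and Rnf152, are not shown. Each runs from 250 bases before to 50 bases after the transcription start given by RefSeq (build GRCm38.p6), 5′ to 3′ on the gene's own strand. Capitals mark GGTCA, 1 arm of the paired estrogen receptor motif, or its reverse complement TGACC.
Upk1a (chr7:30612685-30612984, - strand): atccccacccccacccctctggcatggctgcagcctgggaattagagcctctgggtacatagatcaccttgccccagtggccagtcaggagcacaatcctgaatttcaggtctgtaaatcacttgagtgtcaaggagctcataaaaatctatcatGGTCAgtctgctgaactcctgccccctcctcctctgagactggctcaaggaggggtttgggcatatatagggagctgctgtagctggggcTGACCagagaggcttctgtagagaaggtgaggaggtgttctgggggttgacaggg
Adra2c (chr5:35278316-35278615, + strand): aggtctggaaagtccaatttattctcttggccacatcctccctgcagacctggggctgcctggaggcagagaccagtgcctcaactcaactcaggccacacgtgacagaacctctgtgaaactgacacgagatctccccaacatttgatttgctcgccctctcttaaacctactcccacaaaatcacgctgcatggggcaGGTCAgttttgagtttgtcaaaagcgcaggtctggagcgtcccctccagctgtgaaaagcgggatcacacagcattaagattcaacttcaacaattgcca
Lrat (chr3:82903925-82904224, - strand): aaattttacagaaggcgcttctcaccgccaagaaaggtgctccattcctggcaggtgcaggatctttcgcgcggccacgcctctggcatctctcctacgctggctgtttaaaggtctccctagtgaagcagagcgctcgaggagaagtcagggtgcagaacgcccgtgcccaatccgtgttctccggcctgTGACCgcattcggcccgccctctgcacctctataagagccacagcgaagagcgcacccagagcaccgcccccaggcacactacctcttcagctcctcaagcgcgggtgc
Odam (chr5:87884760-87885059, + strand): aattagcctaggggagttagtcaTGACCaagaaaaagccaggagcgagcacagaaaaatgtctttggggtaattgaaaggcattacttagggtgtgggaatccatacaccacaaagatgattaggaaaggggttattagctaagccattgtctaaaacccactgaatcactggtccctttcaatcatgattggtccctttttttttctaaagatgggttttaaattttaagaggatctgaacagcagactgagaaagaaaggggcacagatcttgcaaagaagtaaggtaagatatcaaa

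The Upk1a window held 2 such matches, and each of the other 3 held 1. As picked examples, these windows do not tell how often the motif occurs among called genes. Of the 204 genes, 162 had a RefSeq promoter in the table used, with 139 windows for genes that rose and 82 for genes that fell. The single motif occurred on either strand in 59 of the 139 (42.4%) and in 33 of the 82 (40.2%), beside 40.5% of all 32851 windows. The full palindrome, GGTCA followed by any 3 bases and TGACC, which contains the single motif on both strands, occurred in 23 of all windows (0.0700%) and in none of those of the 204 genes. The letters TTCNNNGAA, which STAT factors bind, were in 5 of 139 windows of genes that rose (3.60%) and 5 of 82 of genes that fell (6.10%), beside 8.30% of all. These counts describe the letters in a 300-base window and nothing outside it.

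Several other large rises were in genes of signalling proteins. Ptpn5, a tyrosine phosphatase best known from neurons, was at 548 and 502 on the E2 arrays, against 67.6 and 109 on the castrated arrays. Nrtn encodes neurturin, a secreted growth factor of the GDNF family, and was at 1207 and 889 in E2 caput, against 245 and 154 in castrated caput. Both genes were clearly separated between the groups, 6.11-fold (log2 2.61, adjusted p = 0.0184) and 5.34-fold (log2 2.42, adjusted p = 0.0237) by limma. Sectm1b, a secreted and transmembrane protein, was at 522 and 396 in E2 caput, against 84.2 and 70.7 in castrated caput. It was lower still in TP caput (23.3 and 42.7), and its log2 difference was 2.56 from castrated and 3.85 from TP caput (limma adjusted p = 0.0266 and 0.00406). Sv2b, a synaptic vesicle glycoprotein, had 205 and 205 on the E2 arrays, against 38.5 and 45.9 on the castrated arrays, a 4.88-fold rise.

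Lipg, the gene of endothelial lipase, had 788 and 422 on the E2 arrays, against 101 and 93.4 on the castrated arrays. The 2 E2 arrays differed from each other more than for the genes above, and both were well above the castrated arrays (log2 2.57, limma adjusted p = 0.0237). TP (742 and 727) and sham caput (736 and 748) were as bright as E2 caput. 1700018G05Rik rose 5.77-fold and Tmem213 5.32-fold.

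Of the 12 largest rises, 4 were from a castrated level below background on both arrays, so that their folds are lower bounds: the mean of the E2 arrays was set against the higher of the array's background and the gene's own signal. Gria1, a subunit of AMPA glutamate receptors, had 22.5 and 12.7 on the E2 arrays, against 1.31 and 0.517 on the castrated arrays, at least 1.79-fold higher (limma adjusted p = 0.0423). Rbp2, an intestinal retinol-binding protein, was at least 3.53-fold higher with 48.1 and 23.2 on the E2 arrays, against 3.85 and 4.39 on the castrated arrays (adjusted p = 0.0333). Hal, histidine ammonia-lyase, was at least 3.74-fold and Tepsin, an adaptor of coated vesicles, at least 3.16-fold higher. Gria1 and Rbp2 were no longer past the threshold when intensities under 16 were set to 16. For Gria1 the fitted log2 difference of 4.36 was 5.03 without castrated array 1 and 3.69 without castrated array 2.

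**Figure D2:**
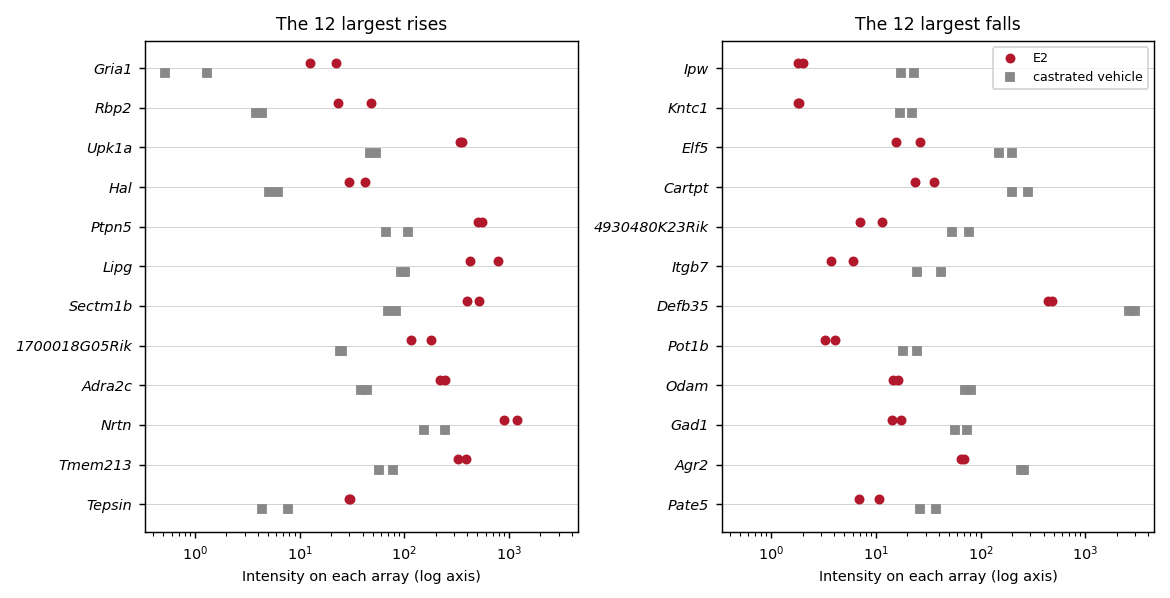
Intensity on each array (log axis) of the 12 genes with the largest rise and the 12 with the largest fall among those past the threshold. Red circles are the 2 E2 arrays and grey squares the 2 castrated arrays, which do not overlap in any row. Ptpn5, Lipg and Nrtn are bright in E2 caput, while Gria1, Rbp2, Ipw, Kntc1 and Pot1b are dim in both groups.

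Further groups of genes were picked after their values were seen, so their choice is no evidence of a direction. Stat5a, a transcription factor activated by prolactin, growth hormone and cytokine receptors, had 661 and 719 on the E2 arrays, against 177 and 116 on the castrated arrays. TP and sham caput resembled the castrated level (209 and 150.2, and 124 and 164). The rise was 4.81-fold (log2 2.27, limma adjusted p = 0.0266), and a second probe set gave a log2 difference of 2.16. Its close paralogue Stat5b was at 447 and 369 in E2 caput, against 175 and 209.9 in castrated caput (log2 1.09, adjusted p = 0.0434). Its second probe set gave 0.38, and cross-hybridization between both genes was not tested. Socs2, a feedback inhibitor of growth hormone signalling, was at 251 and 213 in E2 caput, against 88.4 and 82.7 in castrated caput, a 2.70-fold rise, and its 4 other probe sets above 16 gave log2 differences of 0.74 to 1.84.

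Besides Rbp2, 3 genes of vitamin A metabolism were among those that rose. They were picked from the called genes, and vitamin A genes that did not pass were not counted, so they show no change of the pathway. Lrat makes the retinyl esters in which vitamin A is stored. It was at 184 and 243 on the E2 arrays, against 46.6 and 48.4 on the castrated arrays (4.46-fold, limma adjusted p = 0.0184), with 41.8 and 50.6 in TP and 73.5 and 84.3 in sham caput. The mean over all its probe sets gave a log2 difference of 1.48 in place of 2.16. Rdh12, a retinal reductase, had 128 and 158 on the E2 arrays, against 39.2 and 29.2 on the castrated arrays. Aox3 is an aldehyde oxidase that can use retinal. Its intensity was 326 and 219.8 in E2 caput, against 74.5 and 78.9 in castrated caput, 3.49-fold higher. TP (32.7 and 33.3) and sham caput (23.4 and 18.1) lay below both.

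Among genes of secreted and surface proteins, the chemokine Cxcl16 had 277 and 403 on the E2 arrays, against 90.4 and 84.0 on the castrated arrays (3.83-fold, limma adjusted p = 0.0184). Tissue factor F3, which starts blood coagulation, was at 1269 and 1385 in E2 caput, against 590.4 and 595 in castrated caput. Its E2 level was also above TP (279 and 265) and sham caput (149.8 and 184). Alpl, tissue-nonspecific alkaline phosphatase, rose 3.45-fold to 103 and 97.4 in E2 caput, against 32.5 and 26.0 in castrated caput, and stayed below TP (223 and 227) and sham caput (511 and 482). The prostaglandin E receptor gene Ptger4 was at 1015 and 1410.1 in E2 caput, against 577 and 571 in castrated caput and rose 2.08-fold. Cav1, a caveolar coat protein, was at 2576 and 2773 in E2 caput, against 911 and 1145 in castrated caput and rose 2.62-fold.

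Of the transcription factors among the genes that rose, Mycn was at 205 and 236 in E2 caput, against 49.8 and 67.2 in castrated caput (3.80-fold), and Elf3, an epithelial member of the ETS family, was at 1542 and 1578 in E2 caput, against 561 and 593 in castrated caput (2.71-fold, limma adjusted p = 0.0132). The spread between arrays was small for Elf3 and its groups lay far apart. Ankrd6, an inhibitor of WNT signalling through beta-catenin, had 367 and 375 on the E2 arrays, against 134 and 142 on the castrated arrays, and the mean of its probe sets was not past the threshold (log2 0.77 in place of 1.42).

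Of the 47 tested genes on a list of estrogen-responsive genes, mostly known from uterus and breast, 5 rose and none fell. Over all genes tested 0.952% rose and 0.553% fell. This list was chosen with earlier results of these data known, Upk1a and Adra2c included, so it gives no independent evidence of a direction. Its median log2 difference was 0.36, beside 0.01 over all genes tested, and 28 of its 47 members were higher, beside 6900 of 13557. Rasd1, a small GTPase induced by steroids, was at 1127 and 1466 on the E2 arrays, against 367 and 421 on the castrated arrays (3.27-fold, limma adjusted p = 0.0237). TP caput was at the E2 level (1139.6 and 1417). Stc2, a secreted stanniocalcin, had 471 and 436 in E2 caput, against 134 and 148 in castrated caput (3.22-fold), and Vegfa, the angiogenic growth factor, 162 and 182 in E2 caput, against 80.9 and 69.3 in castrated caput (2.29-fold). From 1 to 2 members were called when 1 array was left out, none without the intensity limit or with 4 arrays alone, and 11 rose and 2 fell under an intensity trend.

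Several textbook estrogen targets on that list were higher without passing limma's test. Greb1 was at 371 and 448 in E2 caput, against 111 and 147 in castrated caput (log2 1.67, adjusted p = 0.0560), and Pgr, the progesterone receptor gene, at 72.9 and 105 in E2 caput, against 35.1 and 52.2 in castrated caput (log2 1.03, adjusted p = 0.113). For Pgr the E2 arrays were also above TP caput (log2 1.67, adjusted p = 0.0200). Myc, a growth-promoting transcription factor, had 138 and 120.3 in E2 caput, against 50.2 and 24.7 in castrated caput (log2 1.87, adjusted p = 0.102), groups that did not overlap. The water channel gene Aqp5 was at 121 and 54.3 in E2 caput, against 13.8 and 11.3 in castrated caput (adjusted p = 0.197), a large difference with a wide interval (0.39 to 4.99 log2). Igf1 (281 and 263 in E2 caput, against 171 and 211 in castrated caput), Ccnd1 (222 and 197 in E2 caput, against 234 and 220.5 in castrated caput) and Ltf (46.4 and 79.7 in E2 caput, against 60.1 and 80.2 in castrated caput) did not pass, and the arrays overlapped for Ltf.

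None of the 10 tested steroid receptor and cofactor genes passed limma's test, with 4 at an unadjusted p under 0.05. Esr1, the main estrogen receptor gene of the tract, was bright in every group, at 1126 and 1028 on the E2 arrays, against 903 and 1065 on the castrated arrays, with a log2 difference of 0.13 (95% interval -0.30 to 0.57). Esr2 was not tested because both group means were at or under 16 (15.1 and 8.89 in E2, 12.1 and 4.85 in castrated caput). Gper1, a membrane estrogen receptor, was at 27.8 and 25.5 in E2 caput, against 29.0 and 23.6 in castrated caput, with overlapping groups. C3 and Crisp1 had no single-symbol probe set and are not analysed here.

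Androgen and glucocorticoid target genes gave 0 calls among 21 tested, with 12 at an unadjusted p under 0.05 (limma). Fkbp5, a cochaperone gene that both kinds of steroid induce, was at 503 and 473 on the E2 arrays, against 602 and 557 on the castrated arrays, and far brighter in TP (1819 and 1717) and sham caput (1540.2 and 1715). Steroid-metabolizing genes gave 0 calls among 12, with 3 at an unadjusted p under 0.05. Hsd17b11, a hydroxysteroid dehydrogenase, came nearest at 2459 and 2429 in E2 caput, against 1315 and 1564 in castrated caput (log2 0.77, adjusted p = 0.0512).

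The falls were led by Elf5 and Cartpt among genes above background in both groups. Elf5, an ETS transcription factor of secretory epithelia, was at 26.3 and 15.6 on the E2 arrays, against 149 and 199 on the castrated arrays, 8.49-fold lower (log2 -3.09, limma adjusted p = 0.0423). Sham caput (164 and 147) was as bright as castrated caput. TP caput (27.2 and 67.5) was also low, and E2 caput did not pass the test against it (limma adjusted p = 0.230). Cartpt encodes the CART neuropeptide and was at 36.3 and 23.6 in E2 caput, against 199 and 282 in castrated caput (log2 -3.02, adjusted p = 0.0271). For Cartpt, TP (46.1 and 79.7) and sham caput (57.4 and 39.8) were also well below castrated caput. E2 caput did not pass the test against either (limma adjusted p = 0.159 and 0.188). Gad1, the enzyme that makes the transmitter GABA, fell 4.18-fold, with 17.3 and 14.1 in E2 caput, against 57.0 and 74.9 in castrated caput.

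Odam, a secreted protein first described in tooth enamel, had 14.6 and 16.4 on the E2 arrays, against 71.3 and 80.4 on the castrated arrays. TP (79.0 and 67.4) and sham caput (60.0 and 58.7) were near the castrated level, so the E2 arrays stood apart from all 6 others. Its log2 difference was -2.29 (95% interval -2.63 to -1.96, limma adjusted p = 0.0107). Rnf152, an E3 ubiquitin ligase, was at 59.4 and 54.6 on the E2 arrays, against 194 and 194 on the castrated arrays (log2 -1.77, adjusted p = 0.0107). TP caput had 151 and 138 and sham caput 60.3 and 56.5, the last close to the E2 level.

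Agr2, a protein disulfide isomerase of mucus-secreting cells, was at 70.1 and 65.3 in E2 caput, against 258 and 246 in castrated caput, and brighter in TP (434 and 520.3) and sham caput (921 and 685). Its fall from castrated caput was 3.73-fold (limma adjusted p = 0.0184), and its E2 level was the lowest of the 4 groups. A second probe set gave a log2 difference of -2.08, close to the -1.90 of the main one.

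Among the 12 largest falls, both E2 arrays were below background for Itgb7, Ipw, Kntc1 and Pot1b. Itgb7, an integrin of lymphocytes, was at least 3.64-fold lower, with 3.77 and 6.03 in E2 caput, against 42.1 and 24.5 in castrated caput (limma adjusted p = 0.0423). Ipw, a noncoding transcript of an imprinted region, was at least 2.28-fold lower. The kinetochore gene Kntc1 and the telomere-binding gene Pot1b were at least 2.20-fold and 2.41-fold lower. None of these 4 passed with intensities under 16 set to 16. 4930480K23Rik had 11.3 and 7.08 in E2 caput, against 53.9 and 77.7 in castrated caput, and the mean of its probe sets did not pass.

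Further falls, picked after their values were seen, covered hormones, transporters and receptors. Stc1, the stanniocalcin related to Stc2, had 415 and 390.4 on the E2 arrays, against 978 and 1034 on the castrated arrays, opposite in direction to Stc2. Its fall of -1.32 (log2, limma adjusted p = 0.0271) came to -0.01 with the mean of its probe sets. The other Stc1 probe set was dim, at 16.4 and 3.34 in E2 caput, against 4.58 and 1.97 in castrated caput. Slco1a5, an organic anion transporter, was at 230.3 and 238 in E2 caput, against 593 and 574 in castrated caput. The interleukin 13 decoy receptor gene Il13ra2 was at 94.8 and 98.4 in E2 caput, against 247 and 235 in castrated caput and fell 2.49-fold. Slit2, a secreted guidance protein, fell 2.22-fold, and 2 further probe sets of it gave log2 differences of -1.37 and -1.54. Gng4, a G protein subunit, was at 321 and 306 in E2 caput, against 748 and 738 in castrated caput, but 1 of its other probe sets gave a log2 difference of 0.34 and the mean of its probe sets did not pass (log2 -0.50). Stap1 (2.77-fold), Plac8 (1.76-fold) and the neuroendocrine chaperone gene Scg5 (1.82-fold) fell too.

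Genes of secreted caput proteins changed in both directions. Of 23 tested on a list of caput and initial segment genes, 2 rose and 2 fell, beside 0.952% and 0.553% of all genes. The list's median log2 difference was 0.11. Spink10, a predicted protease inhibitor, was at 133 and 137 on the E2 arrays, against 35.1 and 38.4 on the castrated arrays, a 3.68-fold rise (limma adjusted p = 0.0107). TP caput had 945 and 822 and sham caput 2478 and 2578, so the E2 level was above castrated and far below both. Rnase10, a secreted member of the ribonuclease A family, was at 67.8 and 92.6 in E2 caput, against 24.4 and 29.7 in castrated caput (2.95-fold), with 10312 and 9692 in sham caput. No call on this list was made when any 1 array was left out.

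Defb21, an epididymal beta-defensin, was at 34.8 and 31.5 in E2 caput, against 86.3 and 118 in castrated caput (3.05-fold lower), with 3757 and 3664 in sham caput. Pate5, of the prostate and testis expressed family, was at 10.7 and 6.92 in E2 caput, against 26.6 and 37.3 in castrated caput, and far brighter on the sham arrays (5495 and 5055). Both were thus dim in all castrated groups. Defb35, another epididymal beta-defensin and not on that list, was bright: it had 484 and 437 on the E2 arrays, against 2602 and 2975 on the castrated arrays (log2 -2.60, limma adjusted p = 0.0192). TP caput matched the E2 level (448 and 535) and sham caput was brighter than castrated (6237 and 3691). Defb1, a beta-defensin of many epithelia, fell 2.08-fold. Members of the defensin and Pate families resemble each other, and cross-hybridization between them was not tested.

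The major caput products Lcn5 (2140.4 and 616 in E2, 2215 and 2289 in castrated caput) and Gpx5 (4141 and 2989.9, and 3421 and 3073) did not pass limma's test. Lcn8 was at 18.4 and 60.4 in E2 caput, against 63.7 and 28.6 in castrated caput, and at 9349.5 and 8970.3 in sham caput. Adam7, an androgen-dependent surface protein, was at 449.7 and 492 in E2 caput, against 219 and 291 in castrated caput (log2 0.90, adjusted p = 0.0806), and at 5299.9 and 6705 in TP caput. Its E2 arrays were thus above both castrated arrays without passing, and far below TP caput (log2 -3.66, adjusted p = 0.00165).

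Of 24 genes for ion and water transport, 1 rose and 1 fell, beside 0.952% and 0.553% of all genes. Their median log2 difference was 0.23. Cftr, the chloride channel mutated in cystic fibrosis, was at 253 and 237 on the E2 arrays, against 96.9 and 106 on the castrated arrays (2.41-fold, limma adjusted p = 0.0237). It was also higher than in TP caput (log2 1.56, adjusted p = 0.00555). Slc26a3, a chloride and bicarbonate exchanger, had 233 and 212 in E2 caput, against 591 and 450.1 in castrated caput (2.32-fold lower, adjusted p = 0.0456), and its 2 dimmer probe sets gave log2 differences of -1.42 and -1.29. Castrated and TP caput (686 and 664) were bright for Slc26a3, and E2 and sham caput (198 and 153) were dim. The probe sets used for both genes are of the kind that can match more than 1 transcript.

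Clear and narrow cells of the epididymis acidify its fluid with a proton pump. Of 8 tested marker genes of these cells, 2 fell and none rose, beside 0.553% and 0.952% of all genes tested. Their median log2 difference was -0.08. The pump subunit gene Atp6v0d2 was at 412 and 506 on the E2 arrays, against 1030.1 and 1229 on the castrated arrays (2.46-fold lower, limma adjusted p = 0.0279). Atp6v1b1, another subunit, was at 46.1 and 41.2 in E2 caput, against 113 and 81.8 in castrated caput (adjusted p = 0.0480). Foxi1, the transcription factor of these cells, was at 658 and 599.9 in E2 and 715 and 679 in castrated caput and did not pass (adjusted p = 0.501). In bulk tissue fewer cells of a type and less RNA per cell cannot be told apart, and this holds for every marker given here. Mme, neprilysin, fell 2.15-fold (387 and 321 in E2 caput, against 749 and 764 in castrated caput). It was the 1 called gene of 12 efferent duct epithelium markers, beside 1.5% of all genes called. Most of these markers went the other way, with 9 of the 12 higher in E2 caput and a median log2 difference of 0.23.

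Among 20 genes of apoptosis and survival, 1 fell and 1 rose, beside 0.553% and 0.952% of all genes tested. Bcl2, which blocks apoptosis, was at 444 and 468 in E2 caput, against 827 and 923 in castrated caput (log2 -0.94, limma adjusted p = 0.0271). Its 4 other probe sets above 16 gave log2 differences of -0.70 to 0.05, and the mean of its probe sets did not pass. Bik, which promotes apoptosis, was at 68.1 and 83.6 in E2 caput, against 42.7 and 40.8 in castrated caput (1.81-fold, adjusted p = 0.0494), and its other probe sets gave 0.75 and 1.03. Phlda1 was the 1 gene to rise among 17 of receptor kinase and ERK feedback (2429.7 and 2308 in E2 caput, against 982 and 1126 in castrated caput, 2.25-fold), and no member fell. Cxcl16 was the 1 called gene among 26 cytokines and related genes, and Vegfa among 46 growth factor, WNT and BMP genes.

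Of 40 genes of fibroblasts and extracellular matrix, 4 rose and none fell. Of all genes tested 0.952% rose. The list's median log2 difference was 0.50 and 30 of 40 were higher, beside a median of 0.01 and 6900 of 13557 over all genes. Collagen I subunit Col1a2 was at 1168 and 1209 on the E2 arrays, against 497 and 522 on the castrated arrays (2.34-fold, limma adjusted p = 0.0237), with 1195 and 994 in TP and 1257 and 1111 in sham caput. The castrated arrays were thus the low ones among the 4 groups. Collagen III gene Col3a1 was at 1864 and 1457 in E2 caput, against 655 and 786 in castrated caput, and the matrix glycoprotein gene Fbln2 at 186 and 142 in E2 caput, against 60.8 and 60.3 in castrated caput. Plod2, which modifies collagen for cross-linking, was at 212 and 222 in E2 caput, against 109.8 and 99.9 in castrated caput. The rises of Col3a1, Fbln2 and Plod2 were 2.30-fold, 2.68-fold and 2.07-fold. The mean of the probe sets of Fbln2 did not pass (log2 0.51 in place of 1.42), and its other probe set was under 16 on every array compared.

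Sums here and below cover all listed genes with a probe set, tested or not. Over the 42 such genes of this list, intensity was 22161 and 19515 on the E2 arrays and 15545 and 16381 on the castrated arrays, without overlap. The fibroblast markers moved unequally: Dcn was at 5975 and 5686 in E2 and 5514 and 5602 in castrated caput, Pdgfra at 1383 and 1006 and 1324 and 1458, and neither passed. No gene of the list passed when any 1 array was left out, with the 4 arrays alone or with the mean of all probe sets.

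**Figure D3:**
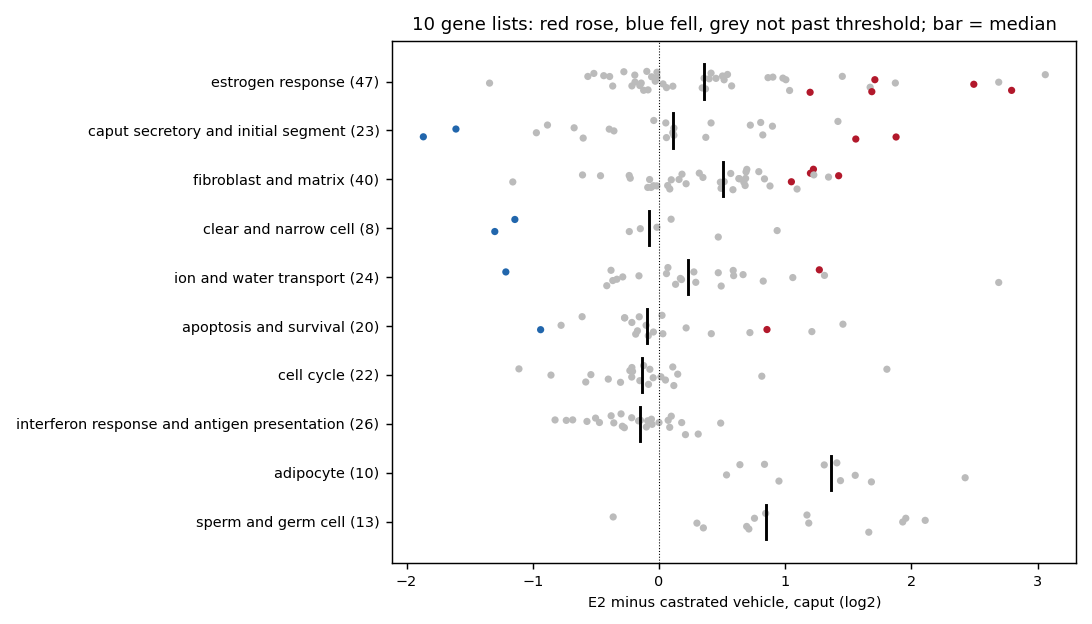
Difference between E2 and castrated caput (log2) for every tested member of 10 gene lists, with the number of members in brackets. Red points rose, blue points fell, grey points did not pass the threshold, and the black bar is the list's median. The medians lie between -0.15 for interferon genes and 1.36 for adipocyte genes, of which none passed.

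Fat markers varied between single arrays. Summed over 12 adipocyte genes with a probe set, intensity was 3961 and 7941 on the E2 arrays and 1123 and 5113 on the castrated arrays, which overlap. All 10 that were tested were higher on average in E2 caput (median log2 difference 1.36), and none passed limma's test, with 3 at an unadjusted p under 0.05. Adipoq, the adiponectin gene, was at 314 and 682 in E2 and 53.4 and 389 in castrated caput, so 1 castrated array was far below the other. Of the 204 genes, Adig, an adipogenesis factor (538 and 505 in E2, 205 and 249 in castrated caput), and Gpd1, a glycerol phosphate dehydrogenase abundant in fat (456 and 545, and 219.8 and 235), rose beside these sums. The mean of the probe sets of Gpd1 had the opposite direction (log2 -0.57) and did not pass, and 1 of its other probe sets above 16 gave -0.91. Both genes were picked after their values were seen. The part of fat in any call was not tested.

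Lymphocyte and plasma cell genes summed to 1021 and 1419 on the E2 and 653 and 1658 on the castrated arrays, also overlapping. The antibody chain gene Ighm was at 195 and 569 in E2 and 53.5 and 612 in castrated caput, while Cd79a was at or below background on all 4 arrays. Sperm and germ cell genes summed to 1147 and 646 in E2 and 687 and 656 in castrated caput, far below the 11268 and 3513 of sham caput. Of 13 tested sperm genes 12 were higher in E2 caput (median 0.84), with E2 array 1 the brighter: Prm1 was at 130.1 and 22.8 in E2 and 46.6 and 22.3 in castrated caput. Neither list had a called gene, with 0 of 7 lymphocyte and 1 of 13 sperm genes at an unadjusted p under 0.05 (limma).

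**Figure D4:**
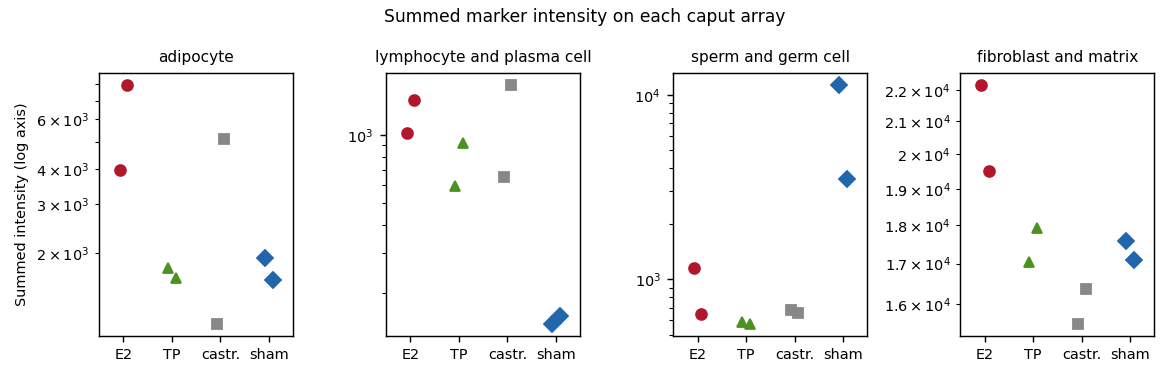
Summed intensity (log axis) of 4 cell type lists on each of the 8 caput arrays, in the order E2, TP, castrated and sham. Points are arrays. Adipocyte and lymphocyte sums differ widely between the 2 castrated arrays, sperm sums are high on the sham arrays only, and the fibroblast and matrix sums of both E2 arrays lie above those of the other 6.

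The remaining marker lists gave no call by limma: 13 smooth muscle genes (0 at an unadjusted p under 0.05), 12 endothelial (1), 21 macrophage and antigen presentation (4), 9 basal cell (3), 15 ciliated cell (4) and 5 Leydig and Sertoli cell genes (1). Their summed intensities overlapped between E2 and castrated caput for smooth muscle (14651 and 10605 in E2, 12756 and 12434 in castrated caput) and macrophage genes (8327 and 8964 in E2, 7094 and 9396 in castrated caput). They did not overlap and were higher in E2 caput for basal cell (2125 and 1896 in E2, 1766 and 1723 in castrated caput) and ciliated cell genes (2311 and 2129 in E2, 1796 and 1974 in castrated caput). On the list of 19 caput epithelium genes Elf3 was the 1 call, beside 1.5% of all genes called, 15 were higher, and the median was 0.12. The sum of that list was also higher without overlap (19663 and 20920.2 in E2, 18159 and 17337 in castrated caput), and that of the clear and narrow cell list lower (2134 and 2136 in E2, 2755 and 2821 in castrated caput). The part of these sums in any call was not tested. Cdh1, the epithelial cadherin gene, was at 1693 and 2041 in E2 and 1387 and 1439 in castrated caput.

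No cell cycle gene of 22 passed limma's test, with 3 at an unadjusted p under 0.05, and the median log2 difference was -0.14. The replication clamp gene Pcna was at 889 and 876 in E2 caput, against 1194 and 1138 in castrated caput, slightly lower without overlap (adjusted p = 0.112). The cell cycle inhibitor gene Cdkn1a was at 236 and 208 in E2 caput, against 150.5 and 105 in castrated caput (adjusted p = 0.116). None of 26 immediate early and stress genes passed, with 5 at an unadjusted p under 0.05. Fos, an early transcription factor gene, was at 638 and 260.3 in E2 caput, against 363 and 596 in castrated caput and differed between arrays of a group by more than between groups. Socs3, a feedback inhibitor of cytokine signalling, was at 88.5 and 117 in E2 caput, against 413 and 206 in castrated caput (log2 -1.52, adjusted p = 0.0937).

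Of 26 interferon response and antigen presentation genes none passed, with 4 at an unadjusted p under 0.05 (limma), 19 were lower and the median was -0.15. Ddx58, which encodes the viral RNA sensor RIG-I and was picked after its values were seen, fell with 109.6 and 105 in E2 and 214 and 216 in castrated caput, and the mean of its probe sets did not pass (log2 -0.59 in place of -1.01). Among 24 genes of ribosome biogenesis and translation 20 were higher, with a median of 0.21, 0 calls and 5 at an unadjusted p under 0.05. Endoplasmic reticulum folding genes (30 tested, 0 calls, 6 at an unadjusted p under 0.05) had a median of 0.00 against castrated and -0.64 against TP caput. Cholesterol synthesis genes (20 tested, 0 calls, 1 at an unadjusted p under 0.05) had medians of 0.16 and -0.71 against the same groups, comparisons that share the E2 arrays. Herpud1, a gene of endoplasmic reticulum stress, was at 856 and 928 in E2, 2019.9 and 1967 in TP and 1252 and 1306 in castrated caput.

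Set against testosterone propionate, E2 caput differed in 853 of the 13557 genes (6.29%, limma adjusted p below 0.05), 467 higher (3.44%) and 386 lower (2.85%). Against sham caput it differed in 4338 (32%), 2699 higher (19.9%) and 1639 lower (12.1%). Both comparisons use the same E2 arrays as the one with castrated caput, so only levels are set side by side. Upk1a, Sectm1b, Stat5a, Cxcl16 and Lrat are examples of genes bright in E2 caput and dimmer in the other 3 groups. For Cxcl16, TP had 75.1 and 74.2 and sham caput 52.7 and 51.0, and the log2 difference from TP was 2.16 (adjusted p = 0.00452).

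For other genes the E2 and TP levels lay close together and apart from castrated caput. Examples are Lipg, Rasd1 and Defb35, with log2 differences between E2 and TP of -0.35 (limma adjusted p = 0.504), 0.02 (0.968) and -0.09 (0.866), which did not pass. The intervals of these differences were -1.03 to 0.33, -0.44 to 0.47 and -0.72 to 0.54 (95%), so differences within them cannot be told from none. For Agr2 the directions differed, with means of 67.7 ± 3.41 in E2, 477 ± 61.0 in TP and 252 ± 8.78 in castrated caput (SD, n = 2 each). Stc1 was lowest in TP and sham caput (139 and 155 in TP and 138 and 183 in sham caput), below the E2 level.

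**Figure D5:**
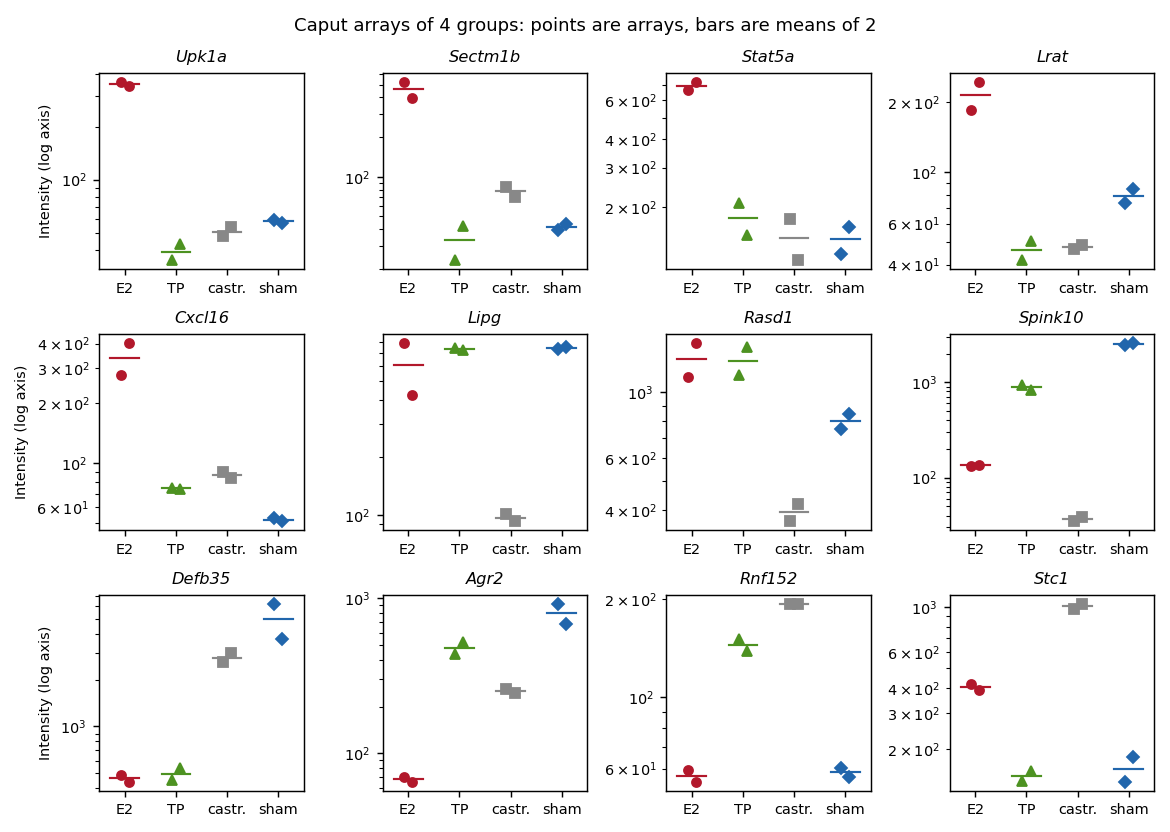
Intensity (log axis) of 12 called genes on the 8 caput arrays, in the order E2, TP, castrated and sham. Points are arrays and bars the mean of 2. Upk1a, Sectm1b, Stat5a, Lrat and Cxcl16 are bright on the E2 arrays only, Lipg, Rasd1 and Defb35 have like levels in E2 and TP caput, and Spink10 lies between castrated and TP caput.

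The same contrast was available in the efferent ducts, the small tubules between testis and caput, on separate arrays made with another labelling kit. Of the 129 genes that rose in the caput, 104 (80.6%) were also higher in E2 than in castrated efferent duct, beside 62.7% of all 13557 genes. Of the 75 that fell, 40 (53.3%) were lower there, beside 37.3% of all. The median log2 difference in the duct was 1.09 for the genes that rose, -0.07 for those that fell and 0.37 for all genes. Sectm1b (3.65), Lrat (3.53), Adra2c (2.15) and Alpl (4.52, with 1 castrated duct array below background) were higher there by more than 2 on the log2 scale. Upk1a was dim in the duct, at 14.0 and 61.4 on the E2 arrays, against 13.1 and 0.60 on the castrated arrays, both of these below their arrays' background (13.2 and 10.1), and its difference there did not pass limma's test (adjusted p = 0.108). The efferent duct arrays differed in quality between the groups: the actin 3' over 5' ratio was 1.15 to 1.31 (log2) on the E2 and 3.11 to 3.87 on the castrated arrays. The part of that in these values was not tested, and no difference between tissues was tested.

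A second probe set was available for many called genes. Of 170 further probe sets with a mean above 16, belonging to 90 of the 204 genes, 151 lay in the same direction as the brightest one, and for 79 of the 90 genes all of them did. The 5235 probe sets with several symbols or none were fitted apart, and none passed limma's test (smallest adjusted p = 0.0763, 809 at an unadjusted p under 0.05).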

How the data were processed

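Total RNA had been extracted with TRIzol and labelled with the One-Cycle kit (10 µg of caput RNA) or the Ovation kit (0.05 µg of efferent duct RNA), per the labels' protocols. The intensity values were deposited by the authors on a linear scale, 45101 probe sets per array. The submitters' processing notes name RMA, but as deposited the values had the form of Affymetrix scaling, with a mean of 125 on each array after trimming 2% at each end, and they were used as linear intensity. The array software and scaling target are not given in the sources used here.

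Log2 was taken here. Of the probe sets, 34958 had 1 symbol in the platform annotation, 932 several and 9211 none. For 9012 genes with several single-symbol probe sets the brightest over all arrays was kept. Of the 13557 genes tested, 12599 exceeded 16 in both group means, 563 only in E2 and 395 only in castrated caput. The test was limma's (version 3.58.1, R 4.3.3), in 1 model of the 8 caput arrays in 4 groups without covariates, with Benjamini-Hochberg adjustment over the genes fitted and a threshold of 0.05. The median 95% interval of a difference was the estimate ± 0.42 (log2), and the number of arrays limits the precision. Same-numbered arrays of different groups did not deviate together (correlations of -0.06 to 0.05), so the numbers were not used as pairs. On simulated data with this design and 13557 genes, 46 of 100 genes changed by 1 on the log2 scale and 90 of 100 changed by 2 were recovered, with 12 false calls. That was 1 draw of independent normal noise with the spread limma had estimated, as its test assumes. It checks the code and does not measure recovery on the real arrays.

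Genes were named by rule: the 12 largest rises and falls among called genes without overlap between groups whose brighter group was above background, up to 4 called members of each of 29 lists (16 of pathways, 13 of cell types) or, without a call, up to 2 with the smallest p, and 23 fixed genes. Others were added after their values were seen. The genes tested, the lists and the rule were chosen with earlier results of these data known. Python 3.11.15, pandas 2.3.3 and matplotlib 3.10.9 made tables and figures. Promoters came from RefSeq. The alternatives were another or no intensity limit, a floor of 16, averaging all probe sets of a gene, quantile normalization, an intensity trend, the 4 arrays alone, a block for the replicate number, and omission of single arrays. Those for the efferent duct were added after seeing the data.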

Additional observations from a re-analysis of the deposited data

Results flagged for a closer look

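Of the 82 genes named in the text that passed the test in the caput, 9 had E2 and castrated arrays that did not overlap in the efferent duct either, but in the opposite direction. The share of all genes with such opposite arrays was not counted, so 9 of 82 is not a result about these genes as a set. The difference between the tissues was not tested, and kit and array quality changed with tissue. Itgb7 was at least 3.64-fold lower in E2 caput, where both E2 arrays were below background, and higher in E2 duct (log2 1.56), where it had 47.9 and 33.3 on the E2 arrays against 15.3 and 12.0 on the castrated arrays. Stap1, an adaptor of immune receptor signalling, was lower in E2 caput (-1.47) and higher in E2 duct (1.23), with 52.8 and 76.9 against 39.9 and 18.5 in castrated duct. The proton pump gene Atp6v0d2 (-1.30 in the caput) was higher by 0.78 in E2 duct. Other genes lower in E2 caput and higher in E2 duct were Pde1a (-1.08 in the caput, 0.80 in the duct) and Ddx58 (-1.01 in the caput, 0.29 in the duct).

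Ptger4 was higher in E2 caput (1.06) and lower in E2 duct (-1.02), with 1392 and 1597 against 3393 and 2698 in castrated duct. Bik (0.86 in the caput, -0.80 in the duct), Bag1 (0.89 in the caput, -0.36 in the duct) and Cav1 (1.39 in the caput, -0.57 in the duct) also ran in opposite directions.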

How the results depend on the processing

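The comparison caput E2 minus castrated gave 204 calls. It gave 0 without an intensity limit and 0 with the 4 arrays alone, 83 with the mean of all probe sets (69 of the 204 among them), 27 with the replicate block, although the numbers were not found to pair the arrays, 468 with a floor of 16 and 810 with an intensity trend. Another filter and quantile normalization gave 247 and 257. Leaving out 1 array gave 5 to 14 calls, a range in which the lone array is assumed to vary like the other groups. The 204 genes kept their direction in all the fits above, of which the other filter fitted 197, except under the mean of all probe sets (193 of 197 fitted). Only quantile normalization and that mean could have turned a direction, because the groups of none of the 204 overlapped. The comparison caput E2 minus TP had 853 calls, 387 without a limit, 176 with the 4 arrays alone, 1577 with the trend and 203 to 349 with 1 array left out. The comparison caput E2 minus sham had 4338 calls and 2335 to 3100 with 1 array left out. In the efferent duct 144 of the 204 genes ran in the caput direction, 136 to 149 under its alternatives. The causes of these shifts, the smaller number of arrays included, were not tested. Of named genes that passed, Gpd1 (-0.57) reversed when all probe sets of a gene were averaged. Of those not past the threshold, Synpo2 (-0.16), Sox9 (-0.26), Gper1 (-0.12) and Ccnd1 (0.29) reversed there too. With 1 array left out, log2 differences spanned -0.12 to 0.17 for Gper1, -0.58 to 0.20 for Ltf, -1.22 to 0.50 for Lcn8, -0.12 to 0.35 for Gpx5, -0.50 to 2.01 for Prm1, -0.19 to 1.61 for Prm2, -0.88 to 0.092 for Cd3g, -0.84 to 0.46 for Fos and -0.016 to 2.21 for Cd3e, so these have no settled direction. Values near background, between 7.82 and 11.4 on the arrays compared, limit statements on dim genes.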

Other observations

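Several genes not described above, picked after their values were seen, passed the test. Gstm2, a glutathione transferase, was at 3462 and 4002 in E2 caput, against 1529 and 1572 in castrated caput (log2 1.26, limma adjusted p = 0.0184). Trim2, a ubiquitin ligase, had 2162 and 2211 in E2 caput, against 954 and 1073 in castrated caput, and Oxct1, which breaks down ketone bodies, 1475 and 1683 in E2 caput, against 821 and 806 in castrated caput. Bag1, a cochaperone that binds nuclear receptors and Bcl2, was at 2372 and 2072 in E2 caput, against 1159 and 1235 in castrated caput. Lrg1, a secreted leucine-rich glycoprotein, had 484 and 478 in E2 caput, against 175 and 101 in castrated caput. The purinergic receptor gene P2ry2, which responds to extracellular nucleotides, was at 76.5 and 98.3 in E2 caput, against 26.4 and 18.4 in castrated caput. All of these rose.

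Among the falls, the transcription factor gene Hoxb4 was at 149 and 134 in E2 caput, against 332 and 338 in castrated caput, and Hoxb5os, listed as an opposite-strand transcript of the same gene cluster, at 388 and 493 in E2 caput, against 1259 and 1475 in castrated caput. The phosphodiesterase genes Pde1a (153 and 148 in E2 caput, against 305 and 333 in castrated caput) and Pde7a (254 and 281 in E2 caput, against 434 and 468 in castrated caput) fell as well, although the mean of the probe sets of Pde1a did not pass (log2 -0.37 in place of -1.08). The other Pde1a probe set was under 16 on every array compared. Hepacam2, a cell adhesion gene, was at 111 and 105 in E2 caput, against 315 and 271 in castrated caput, and Prrg1, a membrane protein with a Gla domain, at 1733 and 1719.7 in E2 caput, against 3039.8 and 3272 in castrated caput.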
